A study of Mus musculus with 8 samples.

Results

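Proteasome genes were examined in 32Dcl3, a mouse line of myeloid progenitors that depends on interleukin-3 (IL-3) for growth and forms neutrophil-like cells under granulocyte colony-stimulating factor (G-CSF). Members were all probe sets that the platform annotation pairs with 1 gene symbol starting with Psma to Psmg and a number. The rule found 103 of 45037 probe sets, which stand for 49 of 18193 genes, and 48 of the 49 were bright enough to test. Of the 49 genes, 15 code for core subunits other than the 3 of the immunoproteasome and the thymic one, with the testis-type alpha subunit Psma8 among the 15. A further 3 code for immunoproteasome subunits, 1 for the thymic core subunit, 17 for the cap, 7 for assembly chaperones, 3 for activators and 1 for an inhibitor. The other 2, Psmc3ip and Psme3ip1, match by name only. A probe set annotated to several symbols, from the family of activator subunits, was left out.

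The cells carried either a retroviral vector with FLAG-tagged mutant ASXL1 (pMYs-FLAG-ASXL1-MT-IG, called ASXL1-MT) or the same vector empty (pMYs-IG, called mock). ASXL1 regulates chromatin, and its gene is often mutated in myeloid malignancies. Both cultures were measured in IL-3 (0 h) and at 2, 6 and 24 h of G-CSF. Each of the 8 conditions has 1 Affymetrix array. The sources used here do not say whether the transduced cells were clones or pools, which species the ASXL1 cDNA came from, or whether IL-3 was removed when G-CSF was added. No condition was replicated, so the other culture, or the other times, stood in for replicates, and the number of arrays limits the precision. The spread in the fit mixes array noise with any difference between the 2 cultures in their change over time. The p-values do not measure the spread between independent cultures of a kind. An effect of the vector cannot be told apart from other differences between the 2 cultures.

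The proteasome degrades proteins that carry ubiquitin chains. Its barrel-shaped core is built of alpha rings, which gate entry, around beta rings, which hold the cutting sites; a cap of ATPases and non-ATPase subunits recognises, unfolds and feeds in the substrates. In the immunoproteasome, known from blood cells and from cells under interferon, Psmb8, Psmb9 and Psmb10 take the places of the catalytic subunits Psmb5, Psmb6 and Psmb7 and alter which peptides are released for presentation on MHC class I.

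The promoters of 41 of the 49 members were matched by gene in RefSeq's table for the GRCm38.p6 build. The 250 bases before the start of 6 genes are shown to go with the contrast described below. Of these, 3 are the immunoproteasome genes, though Psmb10 did not pass the test. The others are the cap subunits Psmc5 and Psmd12 with large decreases, and the activator Psme3 with an early decrease. The cap subunit Psmd7, with a larger decrease than Psmd12, had no promoter in RefSeq's table. Each is written 5′ to 3′ on the strand of its gene, and capitals mark matches on either strand to 4 motifs. The motifs were the E-box CACGTG, the interferon-stimulated response element (ISRE) core, which is GAAA followed after any pair of bases by GAAA, the gamma-activated sequence (GAS) TTCNNNGAA and the antioxidant response element (ARE) core TGANNNNGC, the last of which is known from the binding sites of the proteasome gene activators NFE2L1 and NFE2L2.
Psmb8, chr17:34197945-34198194, plus strand: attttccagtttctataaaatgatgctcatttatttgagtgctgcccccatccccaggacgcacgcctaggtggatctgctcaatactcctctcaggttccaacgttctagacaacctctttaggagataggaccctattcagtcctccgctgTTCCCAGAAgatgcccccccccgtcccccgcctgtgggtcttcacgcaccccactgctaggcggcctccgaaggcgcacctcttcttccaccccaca
Psmb9, chr17:34187331-34187580, minus strand: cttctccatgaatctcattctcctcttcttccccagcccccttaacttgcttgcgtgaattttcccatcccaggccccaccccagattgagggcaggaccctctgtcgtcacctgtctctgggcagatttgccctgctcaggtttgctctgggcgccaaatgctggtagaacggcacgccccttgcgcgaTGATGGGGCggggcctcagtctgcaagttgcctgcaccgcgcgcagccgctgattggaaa
Psmb10, chr8:105938393-105938642, minus strand: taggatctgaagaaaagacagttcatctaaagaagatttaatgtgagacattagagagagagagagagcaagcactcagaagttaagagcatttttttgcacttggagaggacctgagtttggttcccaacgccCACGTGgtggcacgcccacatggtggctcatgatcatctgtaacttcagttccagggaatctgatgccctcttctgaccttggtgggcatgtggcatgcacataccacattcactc
Psmc5, chr11:106255935-106256184, plus strand: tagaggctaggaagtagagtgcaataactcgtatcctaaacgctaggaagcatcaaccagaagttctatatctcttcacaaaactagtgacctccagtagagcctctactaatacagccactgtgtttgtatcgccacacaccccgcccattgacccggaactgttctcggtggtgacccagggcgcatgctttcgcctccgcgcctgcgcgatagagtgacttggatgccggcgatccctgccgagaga
Psmd12, chr11:107479278-107479527, plus strand: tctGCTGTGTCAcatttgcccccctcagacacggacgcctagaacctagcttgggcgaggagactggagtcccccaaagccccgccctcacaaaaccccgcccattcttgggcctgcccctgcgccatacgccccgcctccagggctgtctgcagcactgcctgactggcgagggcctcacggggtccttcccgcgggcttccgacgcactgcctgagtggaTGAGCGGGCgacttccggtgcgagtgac
Psme3, chr11:101315963-101316212, plus strand: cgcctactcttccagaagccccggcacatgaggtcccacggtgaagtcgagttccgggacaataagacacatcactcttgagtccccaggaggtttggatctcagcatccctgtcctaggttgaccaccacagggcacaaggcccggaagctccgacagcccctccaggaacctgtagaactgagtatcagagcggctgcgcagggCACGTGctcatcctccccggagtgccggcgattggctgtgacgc

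Counting back from the start, the first base of the match lay at -97 for the GAS in Psmb8, at -60 for the ARE core in Psmb9 and at -116 for the E-box in Psmb10. The Psmd12 promoter held ARE cores at -247 and -28, the Psme3 promoter an E-box at -44, and the Psmc5 promoter none of the 4 motifs. The ARE core was in a promoter of 17 of 41 members (41.5%). It was in 35.2% of all 32851 promoters in the table and in a promoter of 40.7% of tested genes. Members and tested genes with a promoter were counted once if any of their promoters matched. The share of all promoters counts each promoter singly, so it is not a like measure. The E-box was in 5 members (12.2%, against 6.02% of all promoters and 9.44% of tested genes). The ISRE core was in 3 (7.32%, against 2.98% and 3.23%) and the GAS in 2 (4.88%, against 7.02% and 7.28%). A match describes letters and is no evidence of binding.

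The values are log2 expression of each probe set relative to its own median over the 8 arrays, so a value of 0 is that probe set's middle level and levels cannot be compared between genes. Base 2 was assumed. The Asxl1 probe set chosen for the gene measured -0.29, -0.53, 0.01 and 0.59 in ASXL1-MT cells in IL-3 and at 2, 6 and 24 h, against -0.01, -0.20, 0.48 and 0.86 in mock cells, so it was lower with the transgene at each time. A further bright Asxl1 probe set was also lower in ASXL1-MT cells at each time, by less. It measured -0.245, -0.02, 0.01 and 0.19, against -0.16, -0.01, 0.02 and 0.27 in mock cells. A dimmer Asxl1 probe set went the other way at each time, with -0.02, 0.02, 0.29 and 0.25 in ASXL1-MT cells, against -1.02, -0.72, -0.54 and 0.09 in mock cells. Where the probe sets lie relative to the transgene is not given, so they do not check the vector labels. Of 11 neutrophil lineage markers on the array, 8 had an estimated level in the bright class and 9 rose by 24 h. Over all tested genes 13.5% rose and 11.1% fell by that time. In the bright class were 1 of 7 lymphoid markers, 2 of 7 macrophage or dendritic, 1 of 6 fibroblast and 0 of 3 erythroid markers. By 24 h 3 of 6 tested macrophage or dendritic markers rose and 1 fell, and of 2 tested erythroid markers 1 rose and 1 fell. Their part in the results below was not tested. In bulk RNA, fewer cells of a type and less RNA per cell cannot be told apart.

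After 24 h in G-CSF most proteasome transcripts were lower than in IL-3, while 2 immunoproteasome transcripts were higher. Of 48 members 29 fell and 2 rose (limma, 1 fit over the 8 arrays on time and vector, false discovery rate 0.05 over all tested genes). Of all 13256 tested genes 11.1% fell and 13.5% rose. The tested members all lay in the bright class, and many of the 13256 genes did not. With a stricter filter on dim genes, calls were more frequent: 1966 of 7649 genes fell and 2093 rose. The median difference over the members was -0.54, against 0.09 over all tested genes. The cap had the highest share, with 16 of 17 genes fallen, followed by the core, Psma8 included and immunoproteasome and thymic genes left out, with 9 of 15 and the assembly chaperones with 4 of 7. This gap depends on the threshold: 16 of 17 cap and 13 of 15 core genes had an unadjusted limma p under 0.05. The medians of cap and core were -0.59 and -0.54, and the groups were not compared by a test. None of the 3 activators and not the inhibitor passed. In both cultures separately, 42 members were lower at 24 h than in IL-3 and 4 were higher, and 2 (Psmb10 and Psmg4) had opposite signs. For 35 members both 24 h arrays lay below the other 6 arrays, which held for 13.7% of all tested genes, and for 2 members both lay above, which held for 15.8%.

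The number of calls depended on each array at either end of this comparison: without 1 of the 4 arrays in IL-3 or at 24 h no gene of the whole table passed, although 42 or 43 of the 48 members still lay below 0 and 30 to 34 had an unadjusted p under 0.05. With the mean of a gene's probe sets 16 members fell, where 992 of all 13256 genes fell. With no filter on dim genes 8 members fell, where 713 of 18193 genes fell. With all probe sets of the table fitted or only the 4 compared arrays 0 members fell, where 48 and 0 of 13256 genes fell.

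**Figure D1:**
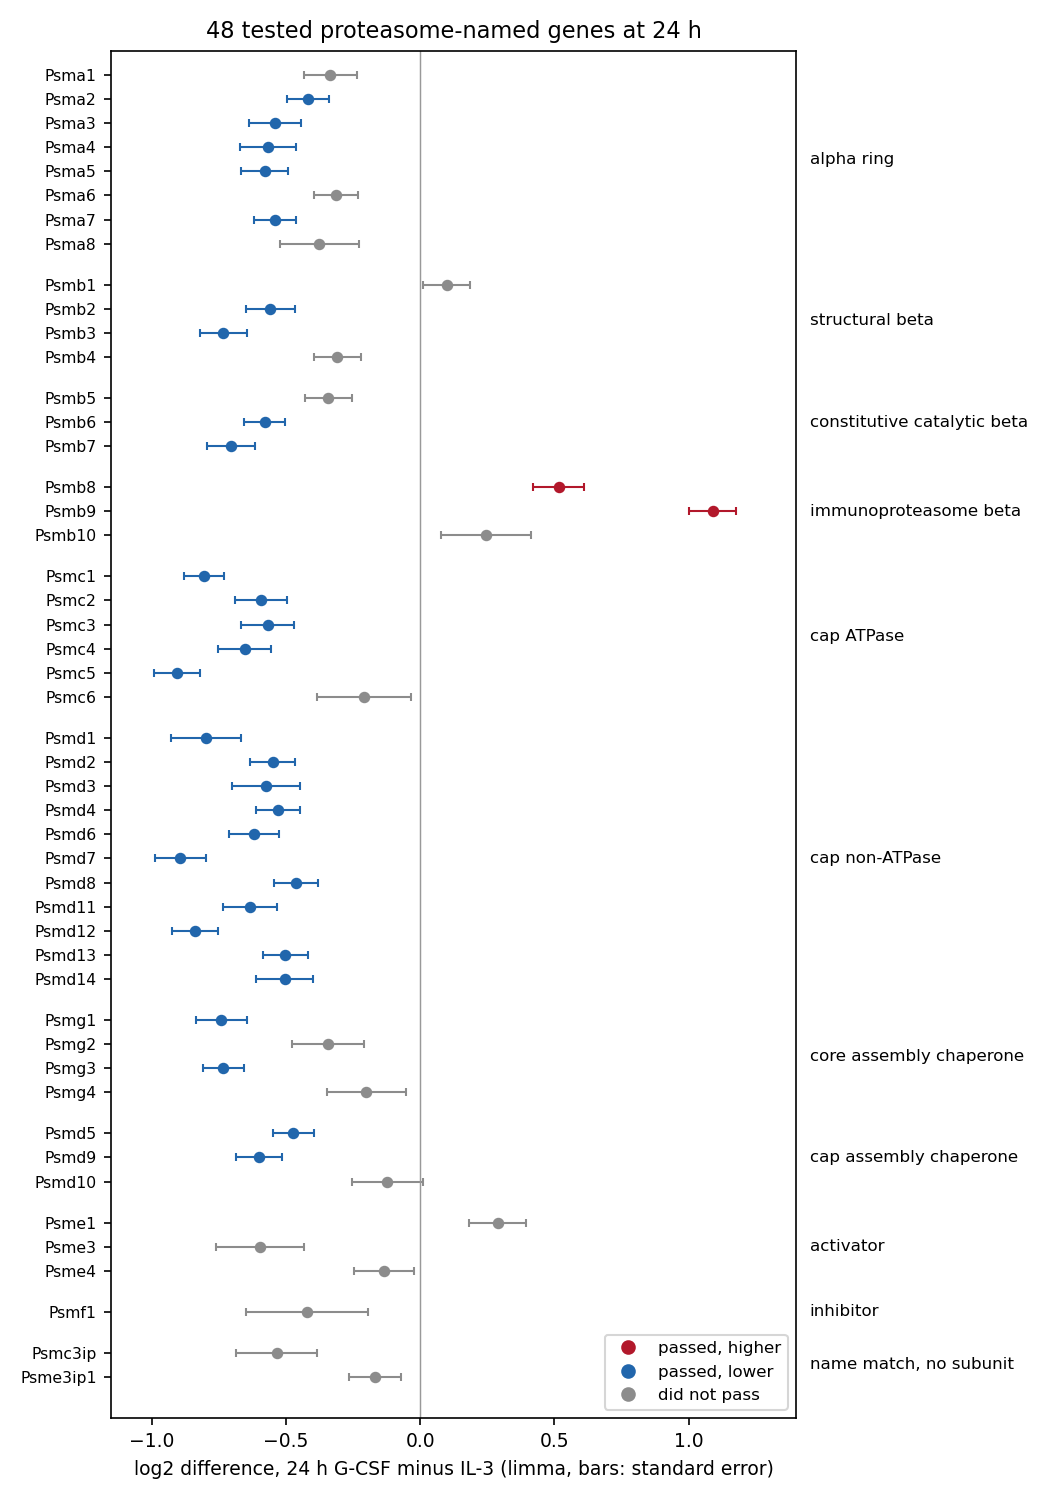
Log2 difference between 24 h in G-CSF and IL-3 for the 48 tested members, with the standard error of the limma fit as bars, ordered by role; red points passed upward, blue points downward and grey points did not pass. The cap non-ATPases all lie between -0.89 and -0.46, while Psmb8 and Psmb9 are the only points that passed to the right of 0.

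Of the 8 alpha ring genes 5 fell at 24 h, and the ring's median was -0.48. Psma5, a ring subunit, measured 0.00, 0.03, 0.17 and -0.55 in ASXL1-MT cells in IL-3 and at 2, 6 and 24 h, against -0.02, 0.03, 0.00 and -0.64 in mock cells. Both 24 h arrays were low and the other 6 lay close together. Its 24 h difference of -0.58 ± 0.09 (SE, 2 arrays on each side) was the most negative of the ring (adjusted p = 0.0194). Psma6 was the least negative at -0.31 ± 0.08 and did not pass (adjusted p = 0.0634). Its values were 0.09, 0.17, -0.01 and -0.19 in ASXL1-MT cells and 0.01, 0.05, -0.03 and -0.33 in mock cells, and again both 24 h arrays were the lowest. Psma1 and the testis-type alpha subunit Psma8 also did not pass, with differences of -0.33 and -0.38, and the 24 h arrays of Psma8 overlapped the 6 h arrays.

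Of the 4 structural beta genes, whose products complete the beta rings without being replaced, Psmb2 (-0.56 ± 0.09) and Psmb3 (-0.73 ± 0.09) fell. Psmb3 measured -0.05, 0.07, 0.07 and -0.71 in ASXL1-MT cells in IL-3 and at 2, 6 and 24 h, against 0.03, -0.03, 0.03 and -0.77 in mock cells. The 6 earlier arrays spanned a narrow band and both 24 h arrays fell far outside it (adjusted p = 0.0131). Psmb4 was at -0.31 ± 0.09 (adjusted p = 0.0744). Psmb1 stood apart among the core genes with a 24 h difference of 0.10 ± 0.09 (adjusted p = 0.481). It measured -0.09, 0.00, 0.00 and -0.08 in ASXL1-MT cells, against -0.14, 0.05, 0.09 and 0.06 in mock cells, so its 24 h arrays lay within the range of the others. Of the 15 core genes, Psmb1 had the sole positive difference at 24 h.

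The constitutive catalytic genes Psmb6 and Psmb7 fell, and Psmb5 was lower without passing. Psmb5, the chymotrypsin-like subunit, measured 0.05, 0.04, 0.09 and -0.31 in ASXL1-MT cells in IL-3 and at 2, 6 and 24 h, against -0.04, 0.09, -0.04 and -0.36 in mock cells. Its difference at 24 h was -0.34 ± 0.09 (adjusted p = 0.0617). Psmb6, the caspase-like subunit, measured 0.01, 0.07, 0.01 and -0.60 in ASXL1-MT cells, against -0.02, 0.07, -0.01 and -0.57 in mock cells. Its 24 h difference was -0.58 ± 0.08 (adjusted p = 0.0154), and the 2 cultures were nearly superimposed. Psmb7, the trypsin-like subunit, measured 0.08, 0.05, 0.08 and -0.62 in ASXL1-MT cells, against -0.05, 0.07, -0.06 and -0.75 in mock cells. Its 24 h difference was -0.70 ± 0.09 (adjusted p = 0.0141). In all 3 genes both 24 h arrays lay below the other 6.

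Of the 3 immunoproteasome genes Psmb8 and Psmb9 rose at 24 h, and Psmb10 did not pass. Psmb9, which replaces Psmb6, measured -0.39, -0.40, 0.27 and 0.64 in ASXL1-MT cells in IL-3 and at 2, 6 and 24 h, against -0.31, -0.27, 0.29 and 0.83 in mock cells. The 4 arrays in IL-3 and at 2 h were low, both 6 h arrays were higher and both 24 h arrays the highest, with no overlap. The difference was 0.63 ± 0.09 at 6 h (adjusted p = 0.025) and 1.09 ± 0.09 at 24 h (adjusted p = 0.00794), and its level at 24 h was 2.13-fold that in IL-3. Psmb8, which replaces Psmb5, measured -0.08, -0.12, 0.13 and 0.39 in ASXL1-MT cells, against -0.14, -0.01, 0.01 and 0.41 in mock cells. Both 24 h arrays were above the other 6, and the 24 h difference was 0.52 ± 0.10 (adjusted p = 0.0302), 1.43-fold the level in IL-3. Psmb10, which replaces Psmb7, measured 0.13, -0.02, 0.02 and 0.09 in ASXL1-MT cells, against -0.37, -0.12, -0.04 and 0.16 in mock cells. The mock arrays increased with time and the ASXL1-MT arrays did not, and the 24 h difference of 0.25 ± 0.17 did not pass (adjusted p = 0.358).

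Set against its partner, each immunoproteasome transcript was higher at 24 h than in IL-3 in both cultures. The log2 value of Psmb9 minus that of Psmb6 was higher by 1.64 in ASXL1-MT cells and by 1.69 in mock cells. For Psmb8 minus Psmb5 the change was 0.84 in ASXL1-MT cells and 0.88 in mock cells. For Psmb10 minus Psmb7 it was 0.66 in ASXL1-MT cells and 1.24 in mock cells, so the cultures were less alike for this pair. In ASXL1-MT cells Psmb10 itself changed by -0.04 and Psmb7 by -0.70, so the change of the pair there came from Psmb7. At 6 h the mean change over both cultures was 0.62 for Psmb9 minus Psmb6, 0.16 for Psmb8 minus Psmb5 and 0.12 for Psmb10 minus Psmb7. These differences between genes were not tested, and they say nothing of the amounts of the 2 proteins. Psmb11, the catalytic subunit known from thymic cortex, fell short of the filter on dim genes and was not tested. Its values spread between -1.73 and 2.25 with no order by time.

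**Figure D2:**
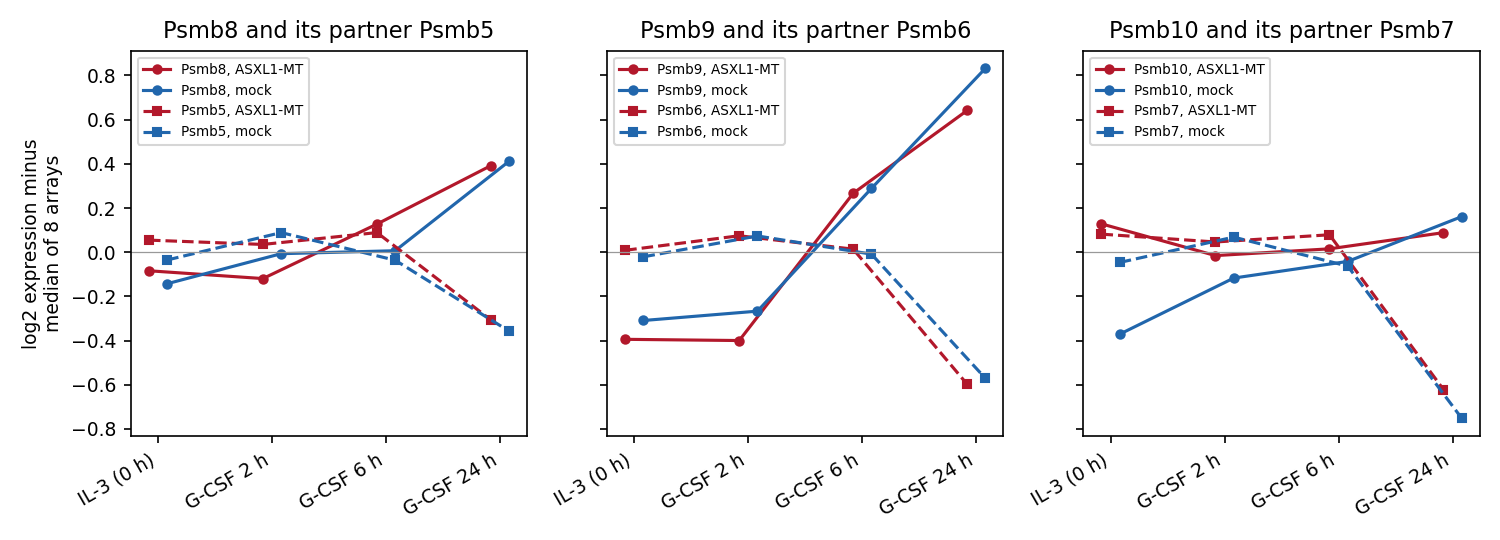
Log2 expression relative to each probe set's median over the 8 arrays, by time, for the 3 immunoproteasome genes (solid lines) and their constitutive partners (dashed lines) in ASXL1-MT cells (red) and mock cells (blue), with 1 array per point. The solid and dashed lines lie close to each other at 6 h for Psmb8 and Psmb10 and are apart in all 3 panels at 24 h.

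Of the 6 cap ATPase genes, which code for the ring that unfolds substrates, 5 fell at 24 h. Psmc5 measured 0.05, 0.18, -0.05 and -0.89 in ASXL1-MT cells in IL-3 and at 2, 6 and 24 h, against 0.03, 0.07, -0.03 and -0.84 in mock cells. Both 24 h arrays were far below the rest, and the 24 h difference of -0.90 ± 0.09 (adjusted p = 0.00933), 53.4% of the IL-3 level, was the most negative of all members. Psmc1 followed at -0.80 ± 0.08 (adjusted p = 0.00922). Psmc6 did not pass at -0.21 ± 0.18 (adjusted p = 0.456). It measured 0.21, 0.38, -0.20 and 0.19 in ASXL1-MT cells, against 0.01, -0.01, -0.15 and -0.39 in mock cells. The ASXL1-MT array at 24 h was thus high and the mock array low. The 2 other bright probe sets of Psmc6 were at -0.61 and -0.69 at 24 h, and on these both 24 h arrays were low, so the probe sets of this gene disagree.

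All 11 cap non-ATPase genes fell at 24 h, by 0.46 to 0.89, with a median of -0.58. Psmd7, a partner of the deubiquitinase Psmd14 in the lid of the cap, measured 0.25, 0.24, -0.20 and -0.68 in ASXL1-MT cells in IL-3 and at 2, 6 and 24 h, against 0.20, 0.23, -0.39 and -0.65 in mock cells. It stepped down at 6 h and again at 24 h without overlap, with differences from IL-3 of -0.53 ± 0.10 (adjusted p = 0.0398) and -0.89 ± 0.10 (adjusted p = 0.0111). Psmd8, a lid subunit, was the least negative. It measured -0.05, 0.05, 0.16 and -0.53 in ASXL1-MT cells, against -0.06, 0.06, 0.07 and -0.50 in mock cells, with no step at 6 h. Its 24 h difference was -0.46 ± 0.08 (adjusted p = 0.0264). The lid subunit Psmd12 (-0.84 ± 0.09) and the base scaffold Psmd1 (-0.80 ± 0.13) were also among the larger decreases, and the other base scaffold Psmd2 was at -0.55 ± 0.08. The ubiquitin receptor Psmd4 fell by 0.53 and the deubiquitinase Psmd14 by 0.50.

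Of the 4 chaperones that assemble the core, Psmg1 and Psmg3 fell at 24 h, and both had fallen at 6 h. Psmg1 measured 0.24, 0.19, -0.23 and -0.40 in ASXL1-MT cells in IL-3 and at 2, 6 and 24 h, against 0.29, 0.20, -0.19 and -0.56 in mock cells. The 6 h arrays already lay below those in IL-3 and at 2 h, with differences of -0.47 ± 0.09 at 6 h (adjusted p = 0.048) and -0.74 ± 0.09 at 24 h (adjusted p = 0.0146). Psmg3 was at -0.60 ± 0.08 at 6 h (adjusted p = 0.0218) and -0.73 ± 0.08 at 24 h (adjusted p = 0.0105). Psmg4 measured -0.02, 0.25, -0.03 and 0.02 in ASXL1-MT cells, against 0.08, 0.21, -0.08 and -0.37 in mock cells. Its 24 h arrays stood apart from each other, the mock one being low, and the difference of -0.20 ± 0.15 did not pass (adjusted p = 0.398). Psmg2, the partner of Psmg1, was at -0.34 ± 0.13 (adjusted p = 0.146), and its other bright probe set at -0.76.

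Of the 3 chaperones of the cap base, Psmd9 and Psmd5 fell at 24 h. Psmd9 measured 0.10, -0.07, 0.02 and -0.51 in ASXL1-MT cells in IL-3 and at 2, 6 and 24 h, against 0.09, 0.05, -0.02 and -0.50 in mock cells. Both 24 h arrays were low and alike, and the difference was -0.60 ± 0.09 (adjusted p = 0.0174). Psmd5 was at -0.47 ± 0.08 (adjusted p = 0.0221). Psmd10, also called gankyrin, measured -0.05, 0.25, 0.27 and -0.05 in ASXL1-MT cells, against 0.05, -0.09, 0.22 and -0.19 in mock cells. Its 24 h arrays overlapped the earlier ones, with a difference of -0.12 ± 0.13 (adjusted p = 0.561).

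**Figure D3:**
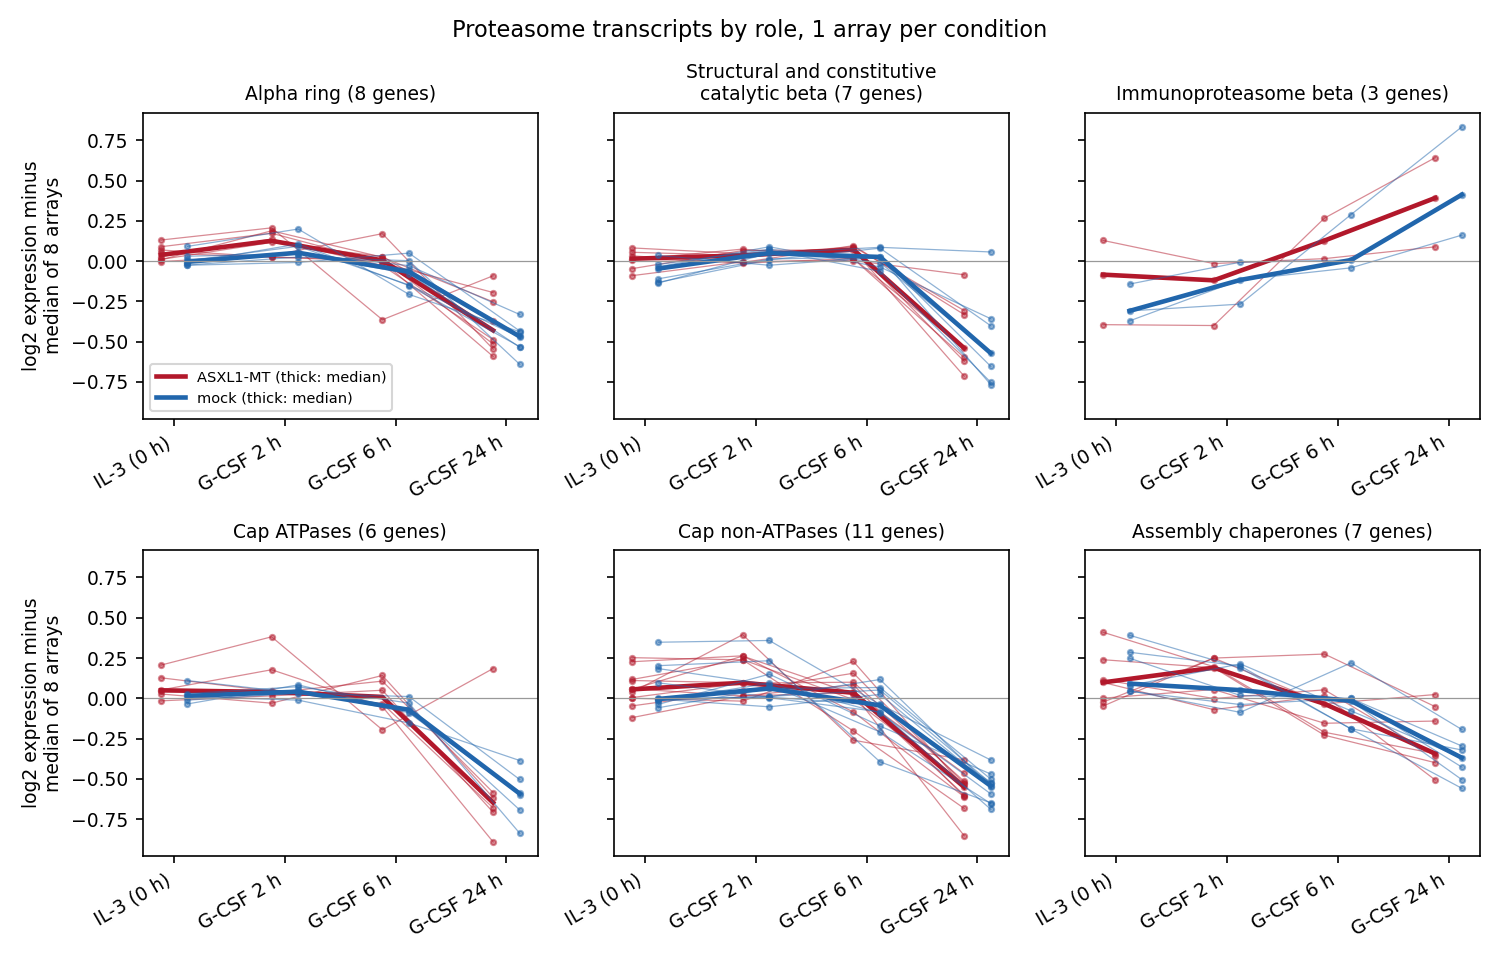
Log2 expression relative to each probe set's median over the 8 arrays, by time, for each tested gene of 6 role groups in ASXL1-MT cells (red) and mock cells (blue), 1 array per point, with thick lines for the group's median. The medians of the core and cap groups stay near 0 through 6 h and are low at 24 h, while that of the immunoproteasome genes is 0.39 in ASXL1-MT cells and 0.41 in mock cells at 24 h.

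The activators bind the core in place of the cap, and none passed at 24 h. Psme1, the alpha subunit of the interferon-inducible activator, measured -0.25, -0.33, 0.10 and 0.14 in ASXL1-MT cells in IL-3 and at 2, 6 and 24 h, against -0.10, -0.09, 0.15 and 0.09 in mock cells. Its 6 and 24 h arrays all lay above the 4 earlier ones, a pattern shared with Psmb8 and Psmb9 and with 18.4% of all tested genes, but the difference of 0.29 ± 0.11 at 24 h did not pass (adjusted p = 0.131). Psme3, the nuclear activator that acts without ubiquitin, measured 0.44, 0.14, -0.66 and -0.14 in ASXL1-MT cells, against 0.19, 0.29, -0.51 and -0.42 in mock cells. The lowest arrays were those at 6 h, and all 4 arrays at 6 and 24 h lay below the 4 earlier ones, as they did for 14 of the 48 members and for 12.2% of all tested genes. Psme3 fell by 0.90 ± 0.17 at 6 h (adjusted p = 0.0407), and at 24 h it was at -0.60 ± 0.17 (adjusted p = 0.0728). Its 2 other probe sets were at -1.04 and -0.92 at 24 h, but the cultures disagreed on the last of these. That probe set measured -0.11 in IL-3 and -2.17 at 24 h in ASXL1-MT cells, against 0.51 and 0.72 in mock cells. Psme4, the large activator known from DNA repair and the testis, measured -0.09, 0.17, 0.30 and -0.18 in ASXL1-MT cells, against 0.04, -0.04, 0.27 and -0.14 in mock cells. It was highest at 6 h and lowest at 24 h in both cultures, with differences from IL-3 that did not pass, of 0.31 ± 0.11 at 6 h (adjusted p = 0.148) and -0.13 ± 0.11 at 24 h (adjusted p = 0.454).

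The inhibitor Psmf1, which blocks binding to the core in vitro, measured 0.00, 0.04, 0.00 and -0.39 in ASXL1-MT cells in IL-3 and at 2, 6 and 24 h, against 0.03, -0.62, 0.11 and -0.42 in mock cells. The mock array at 2 h was the lowest of the 8, below both 24 h arrays. The 24 h difference was -0.42 ± 0.23 (adjusted p = 0.259), and the 2 other bright probe sets of the gene were at 0.11 and -0.04. Psmc3ip and Psme3ip1, which are no subunits, were at -0.53 ± 0.15 (adjusted p = 0.0752) and -0.17 ± 0.10 (adjusted p = 0.286).

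At 2 h none of the 48 members passed in either direction by limma and none had an unadjusted p under 0.05, where 0.0151% of all tested genes rose and 0.0302% fell. The 2 h differences of members lay between -0.31 (Psmf1) and 0.20 (Psmg4), and 28 members had opposite signs in the 2 cultures. At 6 h 1 member rose (Psmb9) and 4 fell (Psme3, Psmg3, Psmd7 and Psmg1), where 8.75% of all tested genes rose and 6.72% fell. The member median at 6 h was -0.02, against 0.11 over all tested genes, and the core's 15 genes lay between -0.40 and 0.16 with no call. With any 1 of the 8 arrays left out, or with all probe sets fitted, no member passed at 6 h.

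Between 6 and 24 h, 11 members fell and 0 rose by limma, where 2.32% of all tested genes fell and 2.74% rose. The 11 were Psma5, Psmb2, Psmb3, Psmb6, Psmb7, Psmc1, Psmc5, Psmd2, Psmd4, Psmd8 and Psmd13, that is 5 of the 15 core genes and 6 of the 17 cap genes. The member median was -0.45, 37 members had an unadjusted p under 0.05, and Psmc5 was again the most negative at -0.82 ± 0.09 (adjusted p = 0.0379). Psmb9 had the highest of these differences, 0.46 ± 0.09, and did not pass (adjusted p = 0.0653). With a stricter filter on dim genes 30 members fell and 2 rose, where 1297 of all 7649 genes in that fit fell and 1073 rose. By contrast 0 members passed in either direction with the mean of probe sets, with quantile normalization repeated, or with any 1 array left out. The 24 h and 6 h comparisons with IL-3 share the IL-3 arrays, and the last comparison shares its arrays with both.

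No proteasome transcript passed the test between ASXL1-MT and mock cells. Over the 4 times none of the 48 members passed by limma in either direction and none had an unadjusted p under 0.05; of all tested genes 0% passed, with 872 at an unadjusted p under 0.05. The member differences lay between -0.12 (Psmd3) and 0.28 (Psmc6), with a median of 0.05, against 0.00 over all tested genes. Among the immunoproteasome genes Psmb8 differed by 0.01 ± 0.07, Psmb9 by -0.11 ± 0.06 and Psmb10 by 0.15 ± 0.12 (adjusted p = 0.976, 0.796 and 0.831). A p that misses the threshold does not show equal levels. The vector difference at 24 h against the other times also gave 0 member calls and 0% of all tested genes, with 749 tested genes but no member at an unadjusted p under 0.05. Member values of this term lay between -0.31 (Psmd1) and 0.40 (Psmg4).

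Within single times, which have 1 array on each side and no test, the median of ASXL1-MT minus mock over the members was 0.03 in IL-3, 0.01 at 2 h, 0.05 at 6 h and 0.02 at 24 h. Differences beyond 0.5 in size were found for 1 member at 2 h, Psmf1 at 0.66, and for 1 at 24 h, Psmc6 at 0.57. Over all tested genes such differences made up 23.8% to 24.9% at each time. The Psmf1 value rests on the low mock array at 2 h, and the Psmc6 value was not seen on that gene's other 2 probe sets. In IL-3 Psmb10 was the highest at 0.50.

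**Figure D4:**
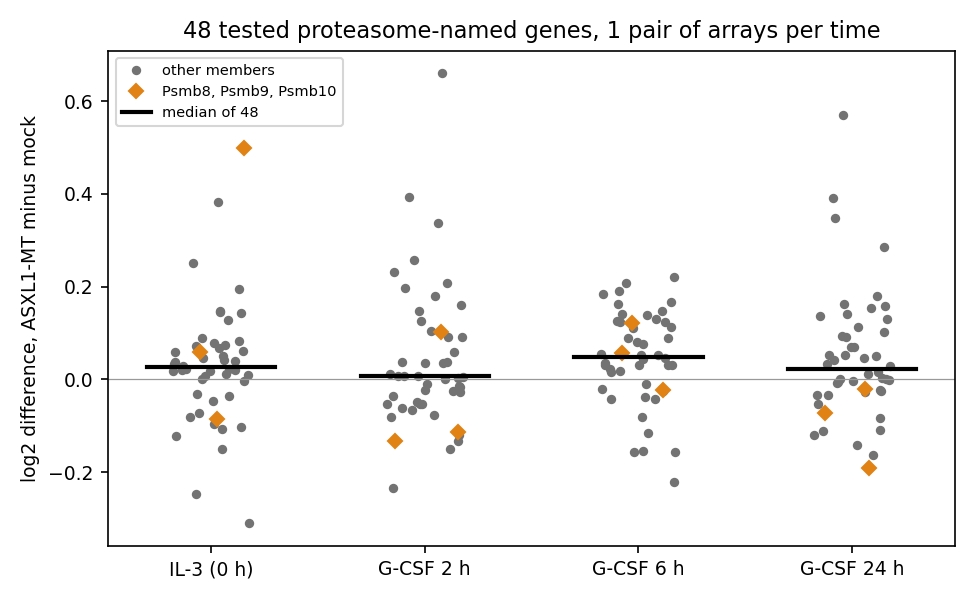
Log2 difference of ASXL1-MT minus mock at each time for the 48 tested members, with 1 array on each side of every point; orange diamonds are the immunoproteasome genes and bars the medians, which lie between 0.01 and 0.05. The outermost points are Psmf1 at 2 h (0.66) and Psmc6 at 24 h (0.57).

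The members' further probe sets were compared with the one used for each gene at 24 h. Of 27 in the bright class, 24 had the same sign, with a median gap of 0.18. Those with the opposite sign belonged to Psmf1, Psma6 and Psmd13, and the Psmd13 probe set was at 0.88, against -0.50 for the one used. Of 27 dimmer probe sets 15 had the same sign and 12 the opposite one, with a median gap of 0.39.

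Genes that work with the proteasome were read from lists. Over all tested genes 13.5% rose and 11.1% fell at 24 h. Of 14 partners outside the name rule 3 rose and 2 fell, shares of 21.4% and 14.3%. Zfand5, which stimulates degradation by the cap-bearing proteasome, was at 1.49 ± 0.10 (adjusted p = 0.00706), and the stress regulator Nfe2l2 at 0.61 ± 0.12 (adjusted p = 0.0333). Sem1, a small subunit of the cap's lid that the name rule does not reach, also rose, at 0.49 ± 0.09 (adjusted p = 0.0278), against the direction of the 11 non-ATPase members. The cap-bound deubiquitinase Usp14 fell by 0.72 and the cap-bound thioredoxin Txnl1 by 0.58. Nfe2l1, the activator of proteasome genes, was at -0.60 ± 0.19 (adjusted p = 0.0919), and Pomp, the core maturation protein, at -0.33 ± 0.09 (adjusted p = 0.0681), and neither passed. Pomp measured -0.02, 0.11, 0.15 and -0.25 in ASXL1-MT cells in IL-3 and at 2, 6 and 24 h, against -0.02, 0.02, 0.04 and -0.45 in mock cells, with both 24 h arrays lowest. Of 11 genes for ubiquitin supply and shuttling 6 fell and 1 rose, with a median of -0.46. Those with the largest changes were the unfoldase cofactors Nsfl1c (-0.75 ± 0.11) and Nploc4 (-0.60 ± 0.10) and the ubiquitin shuttles Ubqln4 (-0.72 ± 0.13) and Rad23b (-0.63 ± 0.11), whereas the autophagy receptor Sqstm1 rose by 0.58.

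Of 12 genes of MHC class I antigen processing, the pathway that the immunoproteasome supplies, 6 rose and 0 fell by limma at 24 h, where 13.5% of all tested genes rose and 11.1% fell. The peptide-loading factor Tapbp was at 1.27 ± 0.10, the light chain B2m at 0.88 ± 0.12, the class I regulator Nlrc5 at 0.80 ± 0.09 and the heavy chain H2-D1 at 0.68 ± 0.11. Tap1, the peptide transporter subunit whose gene neighbours Psmb9, was at 0.64 ± 0.21 and did not pass (adjusted p = 0.0993). It measured -0.54, 0.05, 0.57 and -0.05 in ASXL1-MT cells in IL-3 and at 2, 6 and 24 h, against -0.29, -0.10, 0.52 and 0.50 in mock cells, so the 24 h arrays differed from each other. Of 17 tested interferon response genes 6 rose and 1 fell. The interferon-responsive regulator Irf1 measured -0.84, -0.25, 0.22 and 0.46 in ASXL1-MT cells, against -0.66, -0.22, 0.25 and 0.54 in mock cells, a stepwise increase in both cultures. Its 24 h difference was 1.25 ± 0.09 (adjusted p = 0.00744). Irf9 was at 1.15 ± 0.12 and the RNA sensor Ddx58 at 1.13 ± 0.10, while the GTPase Ifi47 went the other way at -1.41 ± 0.16 (adjusted p = 0.0125). None of the 4 lists held a call between ASXL1-MT and mock cells by limma.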

How the data were processed

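Total RNA of 8 cell cultures was measured on 8 Affymetrix mouse arrays. Scanner intensity was read with MAS 5.0, per the labels' design text. RMA is named, with no version, in the submitters' processing notes. The deposited values are log2 expression of each probe set, centred on its median over the 8 arrays (medians within 5e-07 of 0). Neither the base of the logarithm nor any scaling between arrays is stated in the labels or notes. Under a natural log each difference would be 1.44 times larger.

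The platform table paired 34945 probe sets with 1 symbol, 932 with several and 9160 with none. A level before centring was estimated from the rounding step of the 32-bit numbers (on 8000 simulated probe sets, median error 0.604 on the log2 scale, 91.9% on the right side of the median). It resolves dim, middle and bright classes only, and bright means 8 or more. Each of 18193 genes was represented by 1 probe set, by level class, then accession type, then probe set type, then level. Genes whose second-highest array reached the median level of 6.37 were tested (13256). An array's level was the estimate plus its centred value, so genes in the middle class could pass through their highest arrays alone. The shares over all tested genes carry this limit, while the tested members were all in the bright class.

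The limma functions lmFit and eBayes (version 3.58.1, R 4.3.3) fitted time and vector additively, with 3 residual degrees of freedom, and with an added term for ASXL1-MT at 24 h, with 2. Benjamini-Hochberg adjustment ran over all tested genes, p-values are two-sided, errors are standard errors, and "rose" or "fell" means a false discovery rate under 0.05. The fit was also run on simulated data with independent normal noise of the size of each gene's residual spread. Such data cannot test how far the other culture may stand in for a replicate. The alternatives were the mean of a gene's probe sets, all probe sets fitted, no filter or a stricter one, arrays centred or quantile-normalized again, a prior with a trend, the 4 compared arrays only, and leaving out each array. Members, lists and the rule for the named genes were chosen with earlier results of these data known, and the rule for the probe set per gene after seeing the data. Named with values on all 8 arrays were the catalytic, activator and inhibitor genes, the extremes at 24 h of each other role, and Pomp, Tap1 and Irf1. Of each other list at most the 4 called genes with the largest changes were named, plus Nfe2l1, Pomp, Tap1 and Irf1. Sem1 and Sqstm1 were named after their values were seen. Promoters came from RefSeq's table for GRCm38.p6.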

Additional observations from a re-analysis of the deposited data

Results flagged for a closer look

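The 24 h difference from IL-3 had opposite signs in the 2 cultures for 2 of the 48 tested members. Psmb10 was at -0.0397 in ASXL1-MT cells and at 0.53 in mock cells. The term for the vector effect at 24 h against the other times was -0.29 ± 0.26 for this gene (limma, adjusted p = 0.996). Psmg4 was at 0.0474 in ASXL1-MT cells and at -0.45 in mock cells, and that term was 0.40 ± 0.16 (limma, adjusted p = 0.932). Each value compares 1 array with 1 array, and neither difference between the cultures passed the test. That term sets 24 h against all 3 earlier times, so the difference between the 24 h and IL-3 changes alone was not tested.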

How the results depend on the processing

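The counts of member calls varied with the processing. No call changed sign under any alternative run, but many of these runs leave each difference as it was. A sign could move only with the mean of probe sets, with arrays centred or quantile-normalized again, or without a compared array. At 24 h against IL-3, where 2 members rose and 29 fell, the mean of a gene's probe sets gave 1 and 16, with 1417 and 992 over all 13256 genes. No filter on dim genes gave 1 and 8, with 990 and 713 over all 18193 genes. All probe sets fitted gave 0 and 0, with 190 and 48 over 13256 genes. Only the 4 compared arrays gave 0 and 0, both for members and over all genes. Leaving out 1 array gave 0 to 1 higher and 0 to 16 lower. The 0 came without either IL-3 or either 24 h array, where limma called no gene of the table (3843 to 4047 at an unadjusted p under 0.05), the 12 without either 6 h array and the 16 without either 2 h array. By sign, 43 of 48 members were lower at 24 h in the reported fit, 40 with the mean of probe sets and 42 or 43 without 1 array. At 6 h, where 1 rose and 4 fell, all probe sets fitted, no filter, only the 4 compared arrays and each array left out gave 0 and 0, and the mean of probe sets gave 0 lower. For 24 h against 6 h, where 0 rose and 11 fell, a stricter filter gave 2 and 30, with 1073 and 1297 over all 7649 genes. A prior with a trend gave 1 and 30, with 894 and 1056 over all 13256 genes. The count of members that fell was 0 with the mean of probe sets, all probe sets fitted, no filter, quantile normalization, only the 4 compared arrays and with any 1 array left out. Fits with fewer arrays have fewer residual degrees of freedom, and a lone array was assumed to vary like the others. For other losses the cause was not tested. The counts at 2 h and between the vectors were 0 under all alternatives run. The added term for 24 h could not be fitted without a 24 h array. Over all tested genes 1791 rose and 1472 fell at 24 h, against 1515 and 1816 with arrays centred and 1216 and 1405 after quantile normalization. Dim probe sets limit the further probe sets of members. The vector term of the fit already sets the times against each other within a culture, as does the fit on only the 4 compared arrays. No replicate block could be added, as each group has 1 array.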
